A study of Mus musculus with 8 samples.

Results

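Solute carriers are membrane proteins that move amino acids, peptides, sugars, metals, ions, vitamins, lipids and mitochondrial metabolites. Their genes carry the prefix Slc, a family number and a member code. Their expression was examined by RNA sequencing of cells sorted from the bone marrow of TOX knockout mice (4 libraries) and wild-type mice (4 libraries). TOX is a nuclear HMG-box protein of developing lymphocytes, and by its title the series asks how progenitors of innate lymphoid cells (ILCs) depend on it. The labels give the genotype, but not the sorted population, how the knockout allele was made, the strain, age or sex, or whether animals were pooled. They also do not state that the samples of a group came from separate animals, so p-values measure only the spread between these samples, which may in part be technical. The members were the genes whose symbol starts with Slc and a digit, except Slc4a1, with a mean FPKM (read fragments relative to gene length and to the library's mapped reads) of at least 1 over all 8 libraries. Of 368 such symbols in the table, 160 reached that mean. They fall into 42 numbered families, and 155 of them are named as members of these families. Among the 155 are Slc3a2, the heavy chain of some carriers, and Slc22a17, described below as a receptor. The other 5 are Slc9a3r1 and Slc9a3r2, which encode scaffold proteins, Slc4a1ap and Slc7a6os, which are named after a carrier that they bind or neighbour, and the pseudogene Slc2a4rg-ps. These 5 are kept in the counts by substrate.

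The mean that chose the members was taken over both genotypes and does not compare them. It can still favour a gene that is high in 1 group, and 13 members had a mean under 1 in TOX knockout while 7 had a mean under 1 in wild type. Just inside the limit lay Slc22a17 and Slc36a4, each with a mean of 1.06, and Slc39a8, with 1.12. Just outside lay Slc2a9 with 0.998, Slc19a2 with 0.951 and Slc26a2 with 0.921. Of the 208 symbols under the limit, 37 reached an FPKM of 1 in some library and 1 was listed at 0 in all 8.

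As background, many carriers work by coupling: the sodium and proton gradients kept up by ion pumps drive uptake, and exchangers trade a solute inside the cell for another outside. Some need a partner. Several light chains of the Slc7 family reach the cell surface only with the heavy chain Slc3a2 (CD98), and some monocarboxylate carriers of the Slc16 family need basigin (Bsg) or embigin (Emb). The Slc25 family sits mainly in the inner mitochondrial membrane, and many Slc35 proteins bring nucleotide sugars into the Golgi and endoplasmic reticulum. Lymphocytes raise their uptake of amino acids, glucose and iron when they proliferate, and red cell precursors import iron into mitochondria to make heme.

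The libraries were not alike, and they are called here by the numbers in the column names. Tox stood at 2.34, 0.107, 0.928 and 0.242 FPKM in TOX knockout libraries 10, 11, 16 and 29, against 107, 119, 123 and 92.4 in wild-type libraries 10, 11, 16 and 29. Summed FPKM ranged from 208351 to 632604 in knockout and from 296777 to 365906 in wild type, and since the table gives no read counts the depth is unknown. Globin entries held 25.6, 6.18, 20.9 and 58.6% of summed FPKM in knockout libraries 10, 11, 16 and 29, and 3.67, 3.42, 14.8 and 5.52% in the wild-type libraries in the same order. An ILC progenitor list, chosen with earlier results of these data known, held 0.02503 to 0.178% in knockout and 0.702 to 1.08% in wild type. Of its 16 measured genes 11, Tox itself among them, fell in the limma test set out below (1.72% of all genes did). For this and later lists, measured means tested, with a mean of 1 FPKM or more. Shares of summed FPKM take every listed gene that the table holds. Without Tox the list held 0.02499 to 0.177% in knockout and 0.675 to 1.05% in wild type, and 10 of 15 genes fell. The list cannot tell a difference in the cells sorted from lower expression in the same cells. The 160 members summed to 1705, 1963, 791.1 and 1353 FPKM in knockout libraries 10, 11, 16 and 29, against 1870, 1842, 1848 and 2039 in wild type. Only 4 had a mean over 50 FPKM, 36 had one of 10 to 50 and 120 one under 10, and 73 stood at 1 or more in all 8 libraries. Knockout library 16 stood apart. It held the lowest of the 8 values for 80 of the 160 members (against 55.9% of all tested genes). In it 67 members were under 1 FPKM, against 18, 7 and 41 in knockout libraries 10, 11 and 29 and 10 to 15 in the wild-type libraries.

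**Figure D1:**
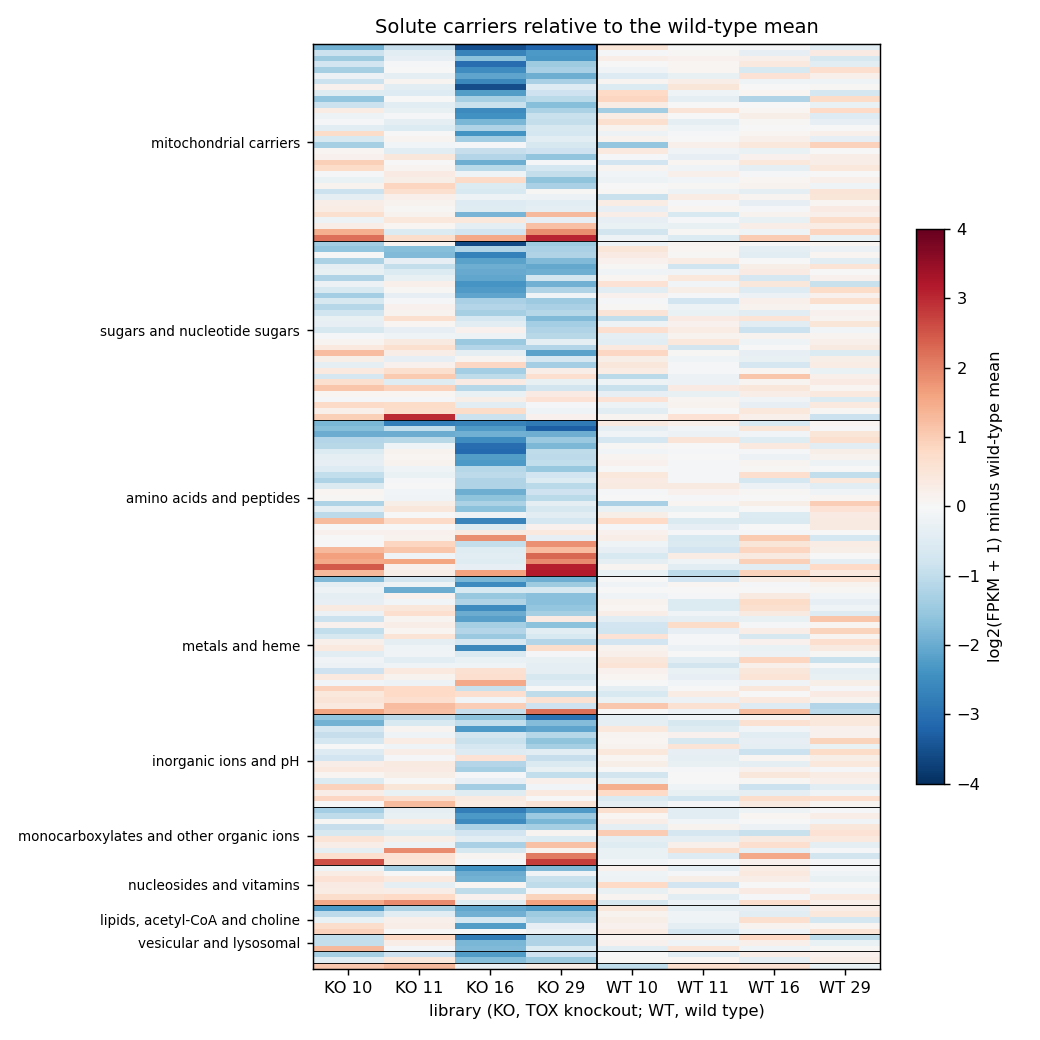
Level of each of the 160 members in each library (columns) as log2(FPKM + 1) minus the wild-type mean of that member, with rows grouped by substrate or site and sorted by fold change within a group. The column of knockout library 16 is the bluest and held the lowest value for 80 members, and the 4 knockout columns on the left are less even than the pale wild-type columns on the right.

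As a whole the solute carriers shifted about as far as the rest of the genes, while 4 carriers, of neutral amino acids, peptides, fatty acids and an unassigned mitochondrial substrate, fell in TOX knockout cells. The log2 fold change, always on log2(FPKM + 1) and positive where TOX knockout was higher, had a median of -0.51 over the 160 members (quartiles -0.97 and -0.03). Over all 10693 genes tested the median was -0.52 (quartiles -0.91 and -0.09). The fold change was below 0 for 123 members (76.9%, against 78.5% of all genes). With the limma test over all genes and a Benjamini-Hochberg adjusted p under 0.05, 4 members fell and 0 rose. The 4 are 2.50% of the members, against 1.92% of all genes called in either direction, 1.72% called lower and 0.196% called higher. Of them, Slc7a8, Slc15a1 and Slc27a6 had a knockout mean under 1 FPKM and entered the members through their wild-type values. Among the 67 members that averaged 5 FPKM or more, Slc25a53 with them, 0 fell. Every knockout value lay under every wild-type value for 17 members (10.6%, against 11.02% of all genes). For 0 members did every knockout value lie above, against 1.09% of all genes. At an unadjusted p under 0.05 in limma, 32 members were lower, where 17.5% of all genes were, and 3 were higher (Slc25a37, Slc43a1 and Slc22a4), where 3.11% of all genes were. The counts by substrate given further on stand against these same shares of all genes, 17.5% lower at an unadjusted p under 0.05 and 78.5% below 0, and in the 5 roles of more than 10 members they ran between 8.33 and 23.5% and between 70.4 and 87.5%. Nothing particular to a role is read from them.

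Median-ratio scaling, which removes the shift common to all genes, brought the median log2 fold change to -0.06 for the members and -0.04 for all genes. Of the members 83 then lay below 0 and 77 above, and 3 fell and 0 rose, where 119 of all genes fell and 93 rose. Medians by substrate or site, all below 0 as deposited except for the single urea carrier, then lay between -0.65 and 0.24, that carrier aside, so that the direction of some of these medians depends on the scaling. As deposited, the count of 4 that fell became 2 without knockout library 10, knockout library 29 or any single wild-type library, 11 without knockout library 11 and 4 without knockout library 16. Over all genes 184 fell with all 8 libraries, 154 without knockout library 10, 84 without knockout library 29 and 78 to 92 without a wild-type library. Without knockout library 11 the count over all genes rose to 490, and without knockout library 16 it was 206. Calls as lower without knockout library 11 given further on stand against that larger number. A call as higher stands against 62 of all genes that rose without that library, where 21 rose with all 8. The count of members was 2 without knockout libraries 16 and 29 together and 0 without knockout libraries 10 and 29 together, where 139 and 38 of all genes fell. Members varied more among knockout than among wild-type libraries: the median coefficient of variation was 71.4% in knockout and 34.3% in wild type, beside 62.6% and 28.6% over all genes tested.

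**Figure D2:**
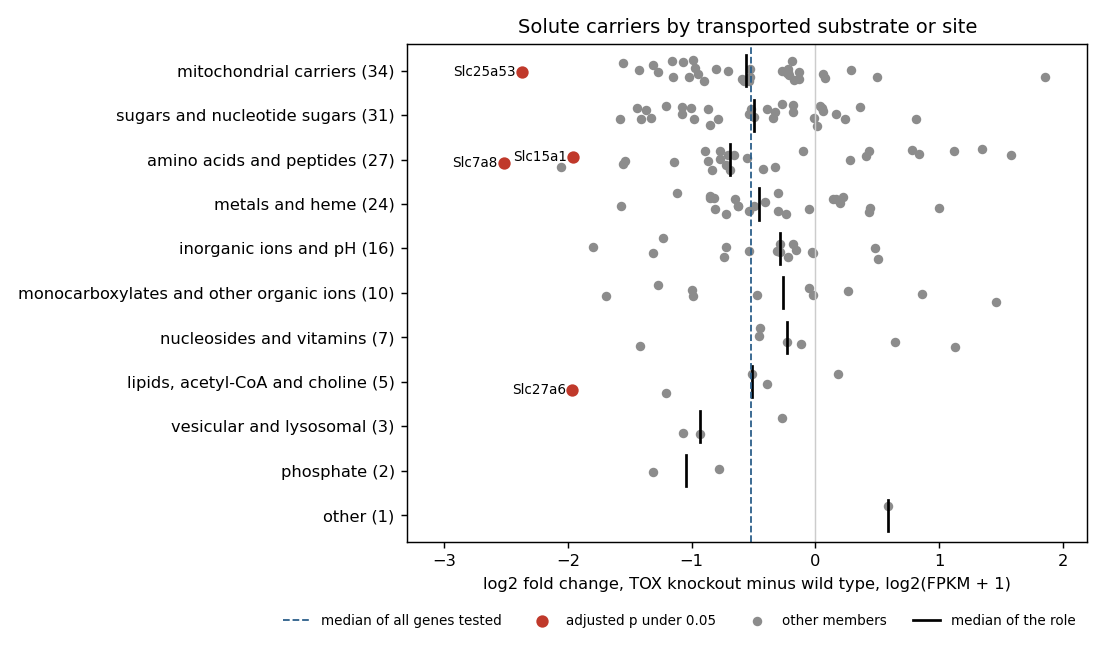
Log2 fold change of each member, on log2(FPKM + 1) with TOX knockout over wild type (x axis), in rows by transported substrate or site with the number of members in brackets; the vertical position within a row is only spread. Red points are the 4 members with an adjusted p under 0.05, black bars are row medians and the dashed line is the median of all genes tested, -0.52.

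Of 27 members for amino acids and peptides, 2 fell and 0 rose, with a median log2 fold change of -0.69, beside -0.52 for all genes. Slc7a8 (chromosome 14, 54722215 to 54781886, mm10) encodes LAT2, an exchanger of neutral amino acids. It stood at 1.26, 0.227, 0.279 and 0.139 FPKM in knockout libraries 10, 11, 16 and 29, against 9.32, 8.27, 4.29 and 7.54 in wild-type libraries 10, 11, 16 and 29. All knockout values lay under every wild-type value, and knockout library 10 was the highest of its group. The mean was 0.477 ± 0.527 in knockout and 7.35 ± 2.17 in wild type (SD, n = 4 each), with a log2 fold change of -2.52 (SE 0.42, limma adjusted p = 0.00741), or -2.18 after median-ratio scaling (adjusted p = 0.01404).

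Slc15a1 (chromosome 14, 121459621 to 121505254, mm10) encodes the proton-coupled peptide transporter PepT1, known chiefly from the small intestine. It was listed at 0, 0.00757, 0.04397 and 0.0139 FPKM in knockout libraries 10, 11, 16 and 29, against 2.61, 2.36, 2.66 and 4.48 in the wild-type libraries. The groups lay apart, at a low level in wild type. This gave a log2 fold change of -1.96 (SE 0.37, limma adjusted p = 0.0172), or -1.71 after median-ratio scaling (adjusted p = 0.0227). Slc15a1 passed under 26 and Slc7a8 under 23 of 30 other settings tried, Slc27a6 under 12 of 30 and Slc25a53 under 7 of 31. Slc7a8, Slc15a1 and Slc27a6 had a knockout mean under 1, so that they entered the members through their wild-type values.

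The related Slc15a2, which encodes the peptide transporter PepT2, was at 4.48, 8.21, 2.77 and 0.863 FPKM in knockout libraries 10, 11, 16 and 29, against 12.98, 15.9, 24.02 and 16.9 in wild type. The groups did not overlap, and the gene missed the threshold as deposited, with a log2 fold change of -2.06 (SE 0.49, limma adjusted p = 0.0534). The lysosomal peptide and histidine carriers of the same family did not show this pattern. Slc15a3 ranged from 0.1798 to 5.04 in knockout and from 0.244 to 2.18 in wild type, with a log2 fold change of 1.12 (SE 0.56, limma adjusted p = 0.268). Slc15a4 ranged from 0.0342 to 14.8 in knockout and from 3.32 to 10.3 in wild type (log2 fold change -0.33, SE 0.74, limma adjusted p = 0.785), and both genes had overlapping groups. The difference between family members was not tested.

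Slc27a6 (chromosome 18) encodes FATP6, a fatty acid transport protein, and was the 1 of 5 members for lipids, acetyl-CoA and choline that fell. It was listed at 0, 1.05, 0.161 and 0.0369 FPKM in knockout libraries 10, 11, 16 and 29, against 5.72, 2.78, 2.91 and 4.92 in wild type. The groups did not overlap, and knockout library 11 was the nearest to wild type. Its log2 fold change of -1.97 (SE 0.42, limma adjusted p = 0.03203) became -1.71 after median-ratio scaling (adjusted p = 0.04199). Slc25a53 (chromosome X, 136981116 to 137038302, mm10), a member of the mitochondrial carrier family, was the 1 of 34 mitochondrial carriers that fell. Its values were 2.33, 5.53, 0.0722 and 0.377 in knockout and 16.1, 11.4, 10.8 and 8.202 in wild type, again with knockout library 11 the highest of its group. It passed as deposited, at -2.37 (SE 0.56, limma adjusted p = 0.0489) in log2 fold change, but not after median-ratio scaling (adjusted p = 0.0554). The locus of Slc25a53 overlaps that of Zcchc18, a gene on the other strand that stood at 1.01, 4.61, 1.55 and 0.181 FPKM in knockout and 1.61, 4.16, 1.05 and 2.56 in wild type, and whether counting used strand is not given. Leaving out knockout library 10, knockout library 29 or any wild-type library took both Slc27a6 and Slc25a53 out of the calls, with adjusted p from 0.0610 to 0.199. Without knockout library 16 Slc25a53 did not pass (0.0679) and Slc27a6 did (0.0339).

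**Figure D3:**
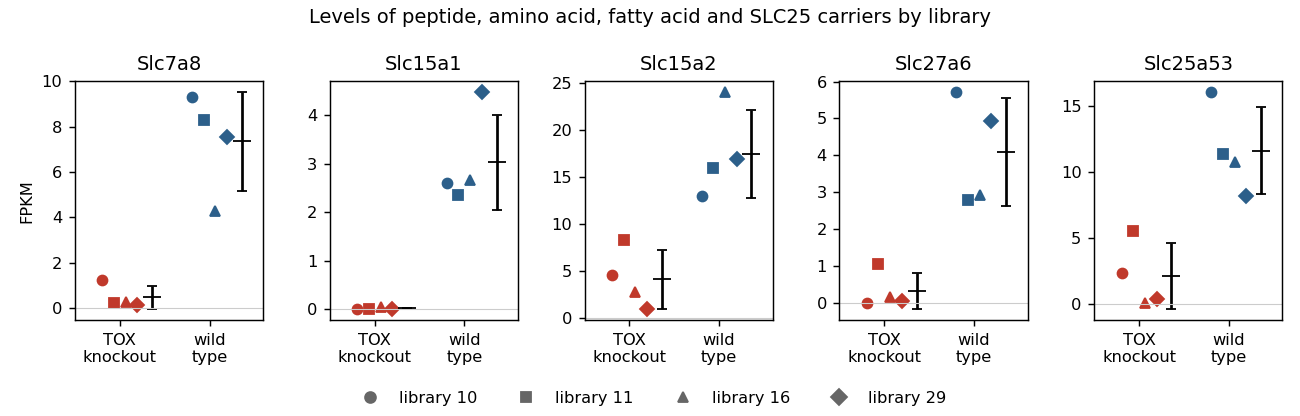
FPKM of the 4 members that fell and of Slc15a2 in each library (symbols by library number), with TOX knockout on the left of each panel and wild type on the right; bars show the mean and SD of 4 libraries. The groups do not overlap in any panel, and knockout library 11 is the highest knockout value for Slc15a2, Slc27a6 and Slc25a53.

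The promoters of the members that fell are shown because these genes moved in the same direction. RefSeq windows of build GRCm38.p6 are given for Slc7a8, Slc15a1 and Slc25a53, each running from 250 bases before the gene's start to 50 after it, all on the minus strand and written 5′ to 3′. Slc25a53 has 2 windows, and the one at the outer end of the locus given in the deposited table is shown. Capitals mark matches, on either strand, to 4 motifs. They are CTTTGA for the core bound by TCF and LEF factors, AGATAA for GATA factors, AGGTCA for the half-site of ROR receptors and GGGCGG for the GC box.
Slc7a8, chr14:54781837-54782136: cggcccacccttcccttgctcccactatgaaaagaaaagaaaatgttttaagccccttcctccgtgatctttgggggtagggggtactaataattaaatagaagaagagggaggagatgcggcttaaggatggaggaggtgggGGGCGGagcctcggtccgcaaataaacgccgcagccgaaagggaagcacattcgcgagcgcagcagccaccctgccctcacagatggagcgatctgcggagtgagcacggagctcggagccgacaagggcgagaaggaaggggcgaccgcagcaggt
Slc15a1, chr14:121505205-121505504: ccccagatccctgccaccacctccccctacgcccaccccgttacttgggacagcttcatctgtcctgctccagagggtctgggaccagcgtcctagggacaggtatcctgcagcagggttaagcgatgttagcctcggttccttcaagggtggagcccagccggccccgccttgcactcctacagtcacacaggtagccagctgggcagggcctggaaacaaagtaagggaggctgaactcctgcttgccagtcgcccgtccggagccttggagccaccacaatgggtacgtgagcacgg
Slc25a53, chrX:137038253-137038552: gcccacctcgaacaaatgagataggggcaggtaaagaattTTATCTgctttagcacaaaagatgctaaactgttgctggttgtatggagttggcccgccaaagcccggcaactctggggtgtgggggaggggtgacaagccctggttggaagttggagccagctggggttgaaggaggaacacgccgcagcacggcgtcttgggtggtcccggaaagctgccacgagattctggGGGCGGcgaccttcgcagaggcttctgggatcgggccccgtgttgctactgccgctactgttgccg
The Slc7a8 window held 1 GC box, the Slc25a53 window held 1 GATA motif (as its reverse complement) and 1 GC box, and the Slc15a1 window held no match to these letters. Of 32851 promoter windows of this length in the table, 35.66% held the GC box, 11.18% the GATA motif, 16% the TCF/LEF motif and 16.26% the ROR half-site. Of 10033 windows of tested genes, 62.16, 6.85, 12.08 and 12.61% did, in that order. Of 168 windows of 121 members, 72.02, 8.33, 14.29 and 13.10% did. The windows of 1 gene overlap in part, and a match is only a description of these letters.

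The column names carry barcodes in 2 runs of numbers, where libraries 10 and 16 have 17 to 20, and libraries 11 and 29 have 40 to 43. They also hold a code, C4 in every wild-type library, E2 in knockout library 11 and E3 in the other knockout libraries. Its meaning is not known here, and it cannot be told apart from genotype. Within the first run, with 2 libraries against 2, the log2 fold changes of Slc7a8, Slc15a1, Slc27a6 and Slc25a53 were -2.12, -1.83, -2.25 and -2.91. Within the second run they were -2.91, -2.08, -1.70 and -1.83. Each was below 0 in both runs. That was fixed in advance, since for these genes every knockout value lay under every wild-type value. The signs are thus no further support, and 0 members passed the test in either run alone. Over all genes 0 passed in the first run, and 11 passed as lower and 2 as higher in the second.

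In the same libraries the summed level of granulocyte markers was higher in every knockout than in every wild-type library. The granulocyte list held 7.896, 3.85, 5.86 and 7.39% of summed FPKM in knockout libraries 10, 11, 16 and 29, against 1.96, 1.32, 2.71 and 0.0817% in wild type, and 0 of its 18 measured genes passed in limma, with 16 higher at an unadjusted p under 0.05, as 3.11% of all genes were. With median-ratio scaling 2 of the 18 passed as higher, Mmp8 (adjusted p = 0.0348) and Itgam (adjusted p = 0.0387). None of the 18 was at 0 in any knockout library, and 4 were at 0 in wild-type library 29. The monocyte list held 0.155 to 0.525% in knockout, against 0.0612 to 0.242% in wild type. Basophil and mast cell genes held 0.0285 to 0.2198% in knockout and 0.0214 to 0.0891% in wild type, and in the B lineage list the range was 0.0139 to 0.0824% in knockout, against 0.0131 to 0.0521% in wild type. Of the 10, 8 and 7 genes measured 0 passed, and 4, 5 and 1 were higher at an unadjusted p under 0.05. At that p 1 monocyte gene, Ccr2, was lower, as 17.5% of all genes were. Ccr2 stood at 79.2, 25.9, 52.3 and 15.1 FPKM in knockout libraries 10, 11, 16 and 29, against 148, 134, 148 and 133 in wild type. The groups did not overlap (log2 fold change -1.94, SE 0.46, limma adjusted p = 0.0522, and 0.195 with median-ratio scaling). With median-ratio scaling 1 monocyte gene, Ms4a6c (adjusted p = 0.0147), and 1 basophil and mast cell gene, Ms4a2 (adjusted p = 0.0449), passed as higher, and 0 of the B lineage. Since these are bulk samples, fewer cells of a type and less RNA per cell cannot be told apart. The part of this difference in cell markers, and of the fall of ILC progenitor genes, in the fall of the 4 carriers was not tested.

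The other carriers of amino acids gave a mixed picture around the CD98 heavy chain. Slc3a2, the heavy chain itself, stood at 16.2, 23.3, 3.85 and 10.1 FPKM in knockout libraries 10, 11, 16 and 29, against 23.7, 21.5, 18.3 and 24.1 in wild type, with knockout library 16 the lowest and overlapping groups (log2 fold change -0.89, SE 0.47, limma adjusted p = 0.287). The expressed light chains that pair with it were Slc7a5, Slc7a6, Slc7a7 and Slc7a8, and their summed level was 8.89, 15.3, 8.91 and 15.1 FPKM in knockout, against 22.6, 19.1, 24.4 and 18.1 in wild type. Slc7a8 made up 14.2, 1.48, 3.14 and 0.921% of that sum in knockout and 41.2, 43.3, 17.6 and 41.7% in wild type. Slc7a5 (LAT1), the light chain induced in activated lymphocytes, was at 2.69, 5.695, 0.905 and 12.2 in knockout and 2.25, 1.47, 4.14 and 3.54 in wild type (log2 fold change 0.43, SE 0.57, limma adjusted p = 0.631), and Slc7a6 (y+LAT2) at 3.66, 7.84, 0.206 and 1.87 in knockout and 9.27, 8.81, 12.2 and 6.55 in wild type (log2 fold change -1.54, SE 0.55, limma adjusted p = 0.174). Neither passed, and in knockout library 29 Slc7a5 was the most abundant light chain.

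Slc38a2 and Slc1a5 had overlapping groups. Slc38a2 (SNAT2), which takes up small neutral amino acids with sodium, had the highest mean of its role, with 34.9, 52.7, 22.1 and 24.1 FPKM in knockout and 67.3, 67.2, 44.1 and 37.6 in wild type (log2 fold change -0.72, SE 0.38, limma adjusted p = 0.292). Slc1a5 (ASCT2), a carrier of glutamine, averaged 38.7 ± 8.08 in knockout and 41.4 ± 8.51 in wild type (SD, n = 4 each), with a log2 fold change of -0.10 (adjusted p = 0.8604). That fold change is above the shift of all genes, and it was 0.50 with median-ratio scaling. Slc6a13 (GAT2), a carrier of GABA and related osmolytes, had groups that did not overlap, with 4.83, 5.17, 1.38 and 3.68 in knockout and 7.38, 17.7, 8.403 and 19.7 in wild type, and did not pass (log2 fold change -1.56, SE 0.47, limma adjusted p = 0.114). Of the genes of amino acid sensing by mTORC1, 0 of 24 measured passed in either direction in limma. At an unadjusted p under 0.05, 2 were lower, where 17.5% of all genes were. The median log2 fold change was -0.41, beside -0.52 for all genes. The smallest p-values there belonged to Sesn1, a sestrin (log2 fold change -1.16, adjusted p = 0.126), and Rraga, a Rag GTPase (log2 fold change -1.53, adjusted p = 0.1904).

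Mitochondrial carriers made up 44.2 to 48.8% of the summed FPKM of the members in knockout and 44.99 to 49.6% in wild type, more than any other role in every library. Of 34 members 1 fell, 0 rose and 29 had a log2 fold change below 0, with a median of -0.56. Slc25a5 (ANT2), an exchanger of ADP and ATP, had the highest mean of all members. It stood at 157, 309, 47.3 and 116 FPKM in knockout libraries 10, 11, 16 and 29, against 306, 341, 251 and 254 in wild type. Knockout library 11 lay within the wild-type range and the other knockout libraries under it (log2 fold change -1.15, SE 0.48, limma adjusted p = 0.215). Its relative Slc25a4 (ANT1) was at 54.8, 75.4, 15.01 and 19.97 in knockout and 97.5, 105, 80.4 and 128 in wild type. The groups did not overlap, and it did not pass (log2 fold change -1.56, SE 0.48, limma adjusted p = 0.127). It did without knockout library 11 (adjusted p = 0.0405). The level of Slc25a4 was 34.9, 24.4, 31.7 and 17.2% of that of Slc25a5 in knockout and 31.8, 30.9, 32.01 and 50.3% in wild type, so that the share did not separate the groups. These are close paralogs, and how reads that match both were counted is not given. Slc25a3, the mitochondrial phosphate carrier, averaged 144 ± 36.9 in knockout and 157 ± 31.1 in wild type (SD, n = 4 each; log2 fold change -0.13, SE 0.33, limma adjusted p = 0.805). Its values were 189, 159, 109 and 119 FPKM in knockout and 122, 162, 147 and 196 in wild type, and its fold change turned to 0.48 with median-ratio scaling.

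At the other end of the mitochondrial carriers stood Slc25a37, which encodes mitoferrin 1, the iron importer of red cell precursors. It was singled out, like Slc43a1, Slc22a4, Slc38a5 and Slc46a3 after it, once the values were seen, as the 5 members with the largest positive fold changes. Slc25a37 was at 83.3, 29.01, 51.5 and 153 FPKM in knockout libraries 10, 11, 16 and 29, against 15.1, 11.6, 36.3 and 14.4 in wild-type libraries 10, 11, 16 and 29. Wild-type library 16 exceeded knockout library 11, so that the groups overlapped. Its log2 fold change of 1.86 (SE 0.52, limma adjusted p = 0.0934) became 2.46 after median-ratio scaling (adjusted p = 0.07901), and the gene passed as higher without knockout library 11 (adjusted p = 0.0351). Among the knockout libraries it had the order of the globin shares given above, lowest in library 11 and highest in library 29, and in wild type library 16 was the highest for both. Slc4a1, the red cell anion exchanger left out of the members, was at 46.5, 6.23, 20.4 and 123 FPKM in knockout and 3.28, 1.27, 17.3 and 6.36 in wild type. The erythroid list held 12.9, 3.096, 10.2 and 28.8% of summed FPKM in knockout and 1.88, 1.72, 7.39 and 2.75% in wild type, with 0 of 17 measured genes past the limma test, 10 higher at an unadjusted p under 0.05 (3.11% of all genes were) and a median log2 fold change of 1.34. This list takes 1 entry for each gene symbol and holds 5 of the 13 globin entries, while the globin share sums all 13, second entries of a gene and entries under other globin names included, so that it can exceed the share of the list. Alas2 and the adult globins were above 0 in every library, and at most 1 listed gene was at 0 in any library. The part of these red cell transcripts in the level of Slc25a37 was not tested.

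The members with the next largest positive fold changes were Slc43a1, Slc22a4, Slc38a5 and Slc46a3. Slc43a1 (LAT3), a carrier of large neutral amino acids, was at 7.44, 3.02, 9.44 and 29.6 FPKM in knockout libraries 10, 11, 16 and 29, against 1.81, 0.689, 5.36 and 3.44 in wild type, and knockout library 29 was the highest (log2 fold change 1.58, SE 0.61, limma adjusted p = 0.188). Slc22a4 (OCTN1), which takes up ergothioneine, was at 5.400, 0.585, 0.0416 and 6.26 in knockout and 0, 0.0864, 0.216 and 0.0135 in wild type (log2 fold change 1.46, SE 0.60, limma adjusted p = 0.209). Slc38a5 (SNAT5), a carrier of glutamine and other amino acids, was at 8.78, 1.02, 0.441 and 14.6 in knockout and 0.9297, 0.343, 0.314 and 2.11 in wild type (log2 fold change 1.35, SE 0.71, limma adjusted p = 0.284). For these last 2 genes knockout libraries 10 and 29 held the 2 highest values, and knockout libraries 11 and 16 lay at or under 1.02 FPKM. Knockout libraries 10 and 29 had the highest globin shares and also the highest granulocyte shares, 7.896 and 7.39% of summed FPKM. Slc46a3, a lysosomal carrier, was at 4.99, 6.77, 0.502 and 5.499 in knockout and 0.3600, 0.778, 2.37 and 1.44 in wild type, highest in knockout library 11, whose globin share was the lowest of the knockout group (log2 fold change 1.13, SE 0.55, limma adjusted p = 0.262). None of the 4 passed as deposited. The part of red cell or granulocyte transcripts in these levels was not tested.

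**Figure D4:**
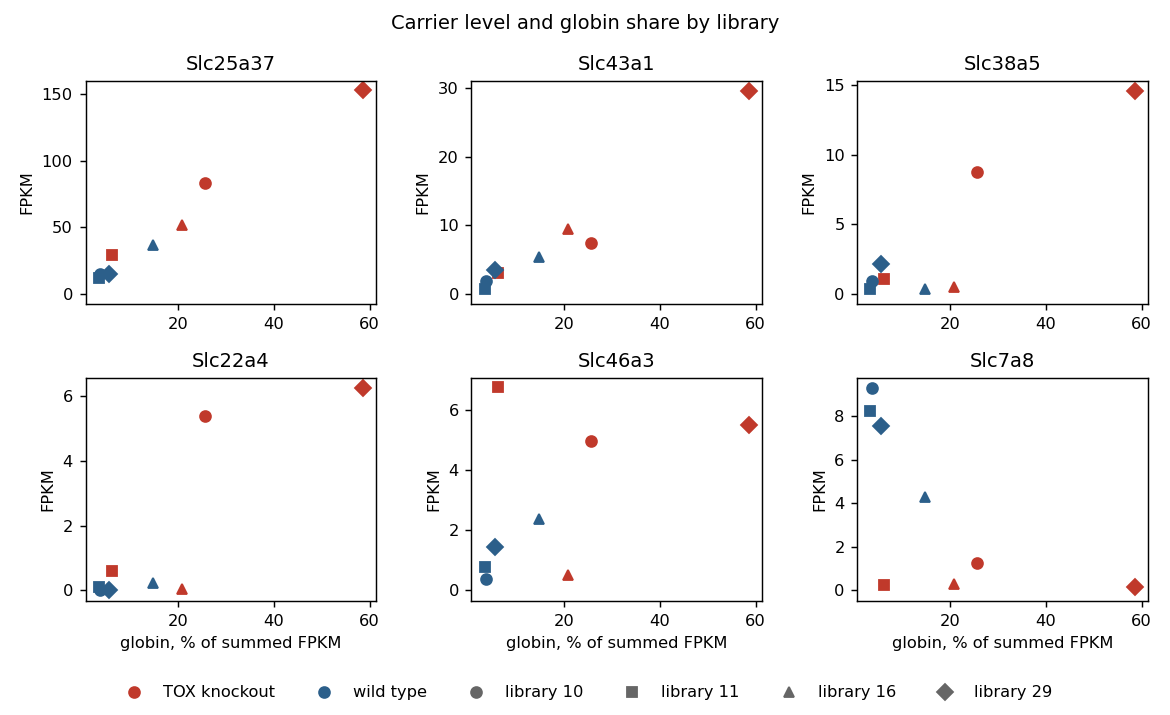
FPKM of 6 members (y axes) against the share of globin entries in summed FPKM (x axes, %) in the 4 TOX knockout and 4 wild-type libraries. Slc25a37 and Slc43a1 are highest in knockout library 29, where globin held 58.6%, and Slc22a4 and Slc38a5 are high in knockout libraries 10 and 29 only. Slc46a3 is highest in knockout library 11, and Slc7a8 is lower in every knockout than in every wild-type library. The part of red cell or other cell transcripts in these levels was not tested.

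Of 24 carriers of metals and heme, 0 passed in limma, 2 were lower at an unadjusted p under 0.05 and 17 had a log2 fold change below 0, with a median of -0.46. Slc39a4 (ZIP4), a zinc importer, had the smallest p of the role. It stood at 0.126, 1.29, 0.0846 and 0 FPKM in knockout libraries 10, 11, 16 and 29, against 2.76, 1.27, 3.55 and 4.58 in wild type. Knockout library 11 lay just above the lowest wild-type value, and the others far below it (log2 fold change -1.57, SE 0.45, limma adjusted p = 0.1005). Slc39a7 (ZIP7), which releases zinc from the endoplasmic reticulum, had the highest mean, with 19.9, 21.1, 20.9 and 18.1 in knockout and 35.5, 13.98, 27.2 and 23.2 in wild type. Its knockout values were nearly even, and its log2 fold change was -0.24 (adjusted p = 0.679), or 0.35 with median-ratio scaling. Slc11a2 (DMT1), the iron and manganese importer of endosomes, was at 7.61, 1.48, 5.43 and 5.37 in knockout and 8.74, 8.87, 8.66 and 9.06 in wild type. Its groups did not overlap, and it did not pass (log2 fold change -0.85, SE 0.44, limma adjusted p = 0.276). Slc40a1 (ferroportin), the iron exporter, ranged from 0.162 to 9.195 in knockout and from 0.0798 to 4.34 in wild type (log2 fold change 1.00, SE 0.67, limma adjusted p = 0.373). Among 17 measured genes of iron, zinc and copper handling 0 passed in limma. At an unadjusted p under 0.05, 1 was lower, where 17.5% of all genes were, and the median log2 fold change was -0.05. Hmox2, a heme oxygenase, averaged 15.1 ± 10.7 FPKM in knockout and 36.8 ± 4.36 in wild type, with groups that did not overlap (SD, n = 4 each; log2 fold change -1.67, adjusted p = 0.179). Iscu, the scaffold of iron-sulfur cluster assembly, was at 54.5, 33.7, 36.8 and 34.8 in knockout and 24.1, 28.4, 23.8 and 22.6 in wild type (log2 fold change 0.65, adjusted p = 0.272).

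Of 31 members for sugars and nucleotide sugars, 0 passed in limma, 7 (22.6%) were lower at an unadjusted p under 0.05 and 23 (74.2%) had a log2 fold change below 0, with a median of -0.50. The pseudogene Slc2a4rg-ps is among the 7. Slc37a3, a relative of the glucose-6-phosphate transporter, had the smallest p. It was at 1.38, 1.14, 2.02 and 1.86 FPKM in knockout and 8.75, 6.45, 4.49 and 4.96 in wild type, with no overlap and little spread among the knockout libraries (log2 fold change -1.44, SE 0.39, limma adjusted p = 0.0851, and -0.93 with median-ratio scaling). It passed without knockout library 16 (adjusted p = 0.04802). Slc37a4, the glucose-6-phosphate transporter itself, also had groups apart, with 5.95, 4.91, 1.11 and 1.204 in knockout and 6.72, 6.75, 9.75 and 7.403 in wild type (log2 fold change -1.21, SE 0.48, limma adjusted p = 0.196). Slc50a1 (SWEET1), a sugar uniporter, had the highest mean of the role, with 40.8, 64.7, 12.2 and 26.3 in knockout and 45.4, 74.1, 43.3 and 104 in wild type (log2 fold change -1.01, SE 0.50, limma adjusted p = 0.263).

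The glucose transporters Slc2a1 and Slc2a3 had overlapping groups. Slc2a1 (GLUT1) was at 9.95, 4.56, 2.57 and 0.05202 FPKM in knockout and 7.29, 3.81, 2.72 and 2.21 in wild type (log2 fold change -0.27, SE 0.64, limma adjusted p = 0.7997). Slc2a3 (GLUT3) was at 6.37, 7.89, 1.197 and 5.81 in knockout and 5.905, 4.31, 4.91 and 3.71 in wild type (log2 fold change -0.01, SE 0.48, limma adjusted p = 0.987). With median-ratio scaling the fold changes were 0.10 for Slc2a1 and 0.43 for Slc2a3. Among the 20 members of the Slc35 family the log2 fold changes ran from -1.58 for Slc35a1, the CMP-sialic acid transporter, to 0.24 for Slc35b1, which exchanges ATP and ADP across the endoplasmic reticulum, and the family median was -0.44. Slc35a1 was at 4.06, 13.4, 0.0932 and 3.92 in knockout and 10.6, 13.3, 12.2 and 13.1 in wild type, so that knockout library 11 was as high as wild type and library 16 was close to 0 (adjusted p = 0.198).

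Of 16 members of the families for inorganic ions and pH, 0 passed in limma, 3 were lower at an unadjusted p under 0.05 and 14 had a log2 fold change below 0, with a median of -0.29. Slc9a9 (NHE9), a sodium and proton exchanger of endosomes, had the smallest p. It stood at 7.99, 12.1, 7.63 and 2.49 FPKM in knockout libraries 10, 11, 16 and 29, against 19.7, 23.4, 28.01 and 35.1 in wild type, with no overlap (log2 fold change -1.80, SE 0.44, limma adjusted p = 0.0606). It passed without knockout library 11 (adjusted p = 0.0312). Slc9a3r1 (NHERF1), a scaffold and not a carrier, had the highest mean of these families, with 29.4, 31.2, 10.2 and 16.01 in knockout and 28.6, 19.7, 18.7 and 33.04 in wild type (log2 fold change -0.29, adjusted p = 0.669), and its fold change turned to 0.30 with median-ratio scaling. Of the 2 phosphate carriers 0 passed and 1 was lower at an unadjusted p under 0.05. It was Slc20a1 (PiT-1), at 11.04, 16.3, 5.42 and 16.1 in knockout and 29.2, 21.9, 35.8 and 33.1 in wild type. All its knockout values lay under the wild-type ones, and it did not pass (log2 fold change -1.31, SE 0.40, limma adjusted p = 0.124). Slc14a1, the urea transporter UT-B and the 1 member of its role, was at 26.3, 30.4, 10.03 and 13.98 in knockout and 5.36, 20.03, 18.5 and 9.504 in wild type, with overlapping groups (log2 fold change 0.59, SE 0.49, limma adjusted p = 0.451).

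Of 10 members for monocarboxylates and other organic ions, 0 passed in limma, 3 were lower and 1 higher at an unadjusted p under 0.05, with a median log2 fold change of -0.26. Slc16a1 (MCT1), a lactate and pyruvate carrier, was at 7.63, 7.09, 4.82 and 21.99 FPKM in knockout and 3.46, 2.77, 14.5 and 2.28 in wild type, where library 16 was the highest (log2 fold change 0.86, SE 0.57, limma adjusted p = 0.3701). Slc16a6 (MCT7) was at 1.71, 4.47, 0.03596 and 0.466 in knockout and 10.00, 4.27, 5.102 and 5.82 in wild type (log2 fold change -1.69, SE 0.53, limma adjusted p = 0.133), and it passed as lower without knockout library 11 (adjusted p = 0.0347). Its locus overlaps those of Arsg, at 9.501, 1.19, 0.181 and 2.31 FPKM in knockout and 1.82, 0.523, 0.165 and 1.39 in wild type, and of LOC100503496. Whether the counting used strand is not given in the sources used here, so reads of overlapping genes cannot be told apart. Of the chaperones of some carriers of the Slc16 family, Emb was at 44.6, 45.4, 31.1 and 13.8 FPKM in knockout and 70.9, 99.7, 61.9 and 97.5 in wild type, with no overlap (log2 fold change -1.37, adjusted p = 0.119). Bsg was at 141, 102, 24.7 and 148 in knockout and 107, 98.2, 94.1 and 92.9 in wild type (log2 fold change -0.19, adjusted p = 0.815). Of the 12 measured transporter partners and gradient pumps, 0 passed in limma. At an unadjusted p under 0.05, 1 was lower and 1 higher, where 17.5% and 3.11% of all genes were. The median log2 fold change was -0.31. Among them Atp1b1, a subunit of the sodium pump, was at 15.1, 6.601, 11.6 and 12.4 in knockout and 1.72, 2.33, 7.81 and 2.48 in wild type (log2 fold change 1.55, adjusted p = 0.113).

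Among 7 carriers of nucleosides and vitamins 0 passed in limma and 1 was lower at an unadjusted p under 0.05, with a median log2 fold change of -0.23. Slc29a1 (ENT1), a nucleoside transporter, was at 17.1, 18.4, 11.6 and 19.5 FPKM in knockout and 11.03, 7.08, 9.71 and 13.6 in wild type, with wild-type library 29 above the lowest knockout value (log2 fold change 0.64, SE 0.36, limma adjusted p = 0.311, and 1.21 with median-ratio scaling, adjusted p = 0.0898). Slc23a2 (SVCT2), which takes up vitamin C, was at 6.17, 2.26, 0.528 and 1.41 in knockout and 8.12, 5.21, 9.02 and 6.72 in wild type (log2 fold change -1.42, SE 0.49, limma adjusted p = 0.161). Among the 3 vesicular and lysosomal carriers 0 passed, also at an unadjusted p under 0.05 in limma, with a median log2 fold change of -0.93. Slc18a2 (VMAT2), the vesicular monoamine transporter, was at 7.94, 29.01, 1.57 and 6.58 in knockout and 18.1, 18.5, 29.95 and 7.78 in wild type, widely spread in both groups (log2 fold change -1.07, SE 0.65, limma adjusted p = 0.337). Slc17a9, the vesicular nucleotide transporter, was at 1.79, 5.52, 0.515 and 1.33 in knockout and 5.05, 3.91, 5.23 and 3.51 in wild type (log2 fold change -0.93, SE 0.47, limma adjusted p = 0.277). Slc44a2 (CTL2), a choline transporter-like protein with the highest mean of its role, was at 49.7, 36.8, 5.58 and 23.9 in knockout and 33.8, 22.7, 33.4 and 32.03 in wild type (log2 fold change -0.39, SE 0.55, limma adjusted p = 0.652, and 0.18 with median-ratio scaling).

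Of the 17 members whose groups did not overlap, 12 are described above. Another 4 are given here for their values only, and none of these passed. They are Slc22a17, a receptor of the siderophore binder lipocalin 2 (log2 fold change -0.99, limma adjusted p = 0.2003) and Slc25a22, a mitochondrial glutamate carrier (-0.71, adjusted p = 0.289). The last are Slc30a7, a zinc transporter of the Golgi (log2 fold change -1.12, limma adjusted p = 0.239), and Slc38a1 (SNAT1), a glutamine carrier (-0.84, adjusted p = 0.244). Slc22a17, with 0.406, 0.945, 0.123 and 0.0536 FPKM in knockout libraries 10, 11, 16 and 29 against 1.09, 1.92, 1.27 and 2.66 in wild type, and Slc15a1 are the 2 members at 1 or more in every wild-type and under 1 in every knockout library.

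Carriers of solutes that bear other names had no call in the values as deposited. Of 33 listed genes 29 were in the table, and 21 averaged 1 FPKM or more and were tested. Of these, 0 passed in either direction in limma. At an unadjusted p under 0.05, 1 was lower and 4 were higher (17.5% and 3.11% of all genes were), with a median log2 fold change of -0.17. With median-ratio scaling 1 of the 21, Unc93b1, passed as higher (adjusted p = 0.0316). Slco3a1, an organic anion transporter, was at 4.34, 5.24, 4.37 and 3.001 FPKM in knockout libraries 10, 11, 16 and 29, against 11.7, 10.04, 12.2 and 12.6 in wild type. The groups did not overlap, and both had little spread (log2 fold change -1.28, adjusted p = 0.0945). Rhd, a red cell membrane protein of the ammonium transporter family, was at 38.6, 6.44, 10.6 and 79.5 in knockout and 4.45, 3.95, 7.23 and 5.33 in wild type, in the same order of knockout libraries as Slc4a1 (log2 fold change 1.90, adjusted p = 0.154). The pyruvate carrier subunits Mpc1 and Mpc2 had log2 fold changes of -0.38 and 0.49 (adjusted p = 0.623 and 0.377).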

How the data were processed

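Total RNA of sorted mouse bone marrow cells was turned into cDNA with a low-input SMARTer kit and sequenced on an Ion Proton, per the labels' protocols. The authors deposited 1 table of FPKM values (read fragments relative to gene length and mapped reads) for 8 libraries, made with Cufflinks on mm10 per the submitters' processing notes. Its version is not given in the sources used here, nor are the aligner and annotation. Each FPKM is relative to each library's total, so abundant transcripts such as globins lower all other values. No counts were given, so the depth and its precision are unknown and no count test was run. Column names give the genotype but match no single labelled replicate, so columns were used as members of a group, called by the numbers in their names. Whether the groups' shared numbers pair the libraries was checked, and they were not treated as pairs.

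Log2(FPKM + 1) was tested with limma 3.58.1 in R 4.3.3 (moderated, mean-variance trend) over the 10693 genes that averaged 1 FPKM or more, with Benjamini-Hochberg adjustment over all of them, after a check on simulated data. Tox was measured first as a check of the genotype labels. Alternatives covered the pseudocount, filters, scaling, weights, blocks, barcode runs and libraries left out. The members, roles and gene lists (companion transporters, partners and pumps, amino acid sensing, metal handling, ILC progenitor, erythroid, granulocyte, monocyte, basophil and mast cell, and B lineage genes) were chosen with earlier results of these data known. Named were the called members, those with the largest fold changes among members whose groups did not overlap (up to 10 a direction), and in each role the member with the highest mean and that with the smallest p. That gave 24, and the 23 others that are described were chosen after their values were seen. Promoters came from RefSeq, GRCm38.p6, which is the mm10 assembly. Genes on chromosome 18 have no sequence shown. Some items are not reported here.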

Additional observations from a re-analysis of the deposited data

Results flagged for a closer look

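Within the 4 libraries of a group, 6 values stood far from the other 3 on the log2(FPKM + 1) scale. With 94 groups examined, chance alone flags about 1 in 20. Slc7a8 stood at 1.26 FPKM in knockout library 10, where the other knockout libraries held 0.139 to 0.279, and this value was still under every wild-type value. Slc39a4 was at 1.29 in knockout library 11, and the other knockout libraries held 0 to 0.126. Slc15a3, a lysosomal peptide and histidine carrier, was at 0.180 in knockout library 16, the lowest of its group, and at 2.18 in wild-type library 16, the highest of its group. Slc46a3 was at 0.502 in knockout library 16, which held the lowest value for 80 of the 160 members. Slc44a2 was at 22.7 in wild-type library 11, and the other wild-type libraries held 32.03 to 33.8.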

How the results depend on the processing

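The count of 4 solute carriers that fell became 2 with a pseudocount of 0.1, 1 with no filter on low values, 0 among the 67 members that averaged 5 FPKM or more, and 8 with library weights. Over all genes tested 96, 67, 106 and 457 fell in these 4 settings, in that order, against 184. The count of members was 0 within the first and 0 within the second barcode run, 2 without knockout libraries 16 and 29, and 0 without knockout libraries 10 and 29 (this setting was chosen after seeing the data). It was 7 at an adjusted p under 0.1 and 17 when counting groups that do not overlap. With 1 library left out it ranged from 2 to 11, and from 1 to 6 with median-ratio scaling. The count over all genes then ranged from 78 to 490, and from 54 to 204 with median-ratio scaling. The count of 0 that rose became 3 with library weights, 1 at an adjusted p under 0.1, and 0 to 1 with 1 library left out on either scaling. With library weights 271 of all genes rose, against 21 without them. The median of -0.51 ranged from -0.66 to -0.31 with 1 library left out and from -0.11 to -0.03 when median-ratio scaling was added (-0.04 without knockout library 29). With the column number as a replicate block 5 members fell and 1 (Slc25a37) rose, and over all genes 267 fell and 77 rose, against 184 and 21 without it. Deviations of same-numbered libraries correlated at 0.04, 0.26, 0.01 and -0.02 for numbers 10, 11, 16 and 29, and 1 of 4 knockout libraries correlated best with its own number. Same-numbered libraries also hold neighbouring barcodes, but the labels do not say that a number marks a shared animal or day, and they were not treated as pairs. Of 47 members described, 32 had 1 sign under every setting tried, and 15 turned sign under some. Members whose groups do not overlap must keep their sign when libraries are left out, split or weighted without rescaling. The count of 32 thus in part restates how members were chosen. The cause of these changes was not tested. Without counts the depth that limits low members is unknown.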
